A study of Mus musculus with 234 samples.

Results

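Angiopoietin-like 4 (Angptl4) and 8 further genes that handle fatty acids in heart muscle, Lpl, Cd36, Fabp3, Plin2, Acot1, Acot2, Pdk4 and Ucp3, were followed across single cardiomyocytes (CMs) of mice carrying a human BAG3 transgene. These 9 genes were taken by name from the 55538 features of the count table, of which 23664 had at least 1 count. They were chosen by earlier results of the same cells, mainly the higher Angptl4 and Acot1 of bright homozygous CMs against control CMs. The values of that contrast are therefore a description and carry no test for the 9 genes. CMs had been released from hearts on a Langendorff system, picked by hand and sequenced with SMART-seq2, a full-length protocol. The table holds 234 cells of 5 mice. Control CMs came from M26 (24 cells) and M73 (9 cells), which the labels list as strain C57BL/6. The methods describe controls as siblings that are wild-type or carry the Cre or the floxed transgene alone, and keep the colony on a mixed background of 129S6/SvEvTac, C57BL/6Ncr and CD-1. Homozygous PGKcre:BAG3P209L CMs came from M25 and M116 and were classed by their eGFP under a fluorescence macroscope as bright (21 and 59 cells) or dim (18 and 50 cells). Heterozygous CMs came from M72 alone, with 27 bright and 26 dim cells. In both transgenic groups a CAG promoter drives human BAG3 with the P209L change fused to eGFP once a Cre under the Pgk promoter has removed a stop cassette. No age is given in the labels, and the paper's results place the homozygous and control animals at 2 weeks. The mouse was treated as the replicate, with the counts of its cells added within each brightness class, which gave 8 sums.

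As background, long-chain fatty acids reach the CM mostly from triglyceride-rich lipoproteins. Lipoprotein lipase (Lpl), made by the CM and carried to the capillary wall, splits the triglyceride, and the secreted protein Angptl4 inhibits that enzyme. The membrane protein Cd36 takes up the released fatty acids and Fabp3 binds them in the cytosol, while Plin2 coats lipid droplets that store the surplus. Acot1 in the cytosol and Acot2 in mitochondria split acyl-CoA, Pdk4 restrains pyruvate oxidation by phosphorylating pyruvate dehydrogenase, and Ucp3 is an uncoupling protein of the inner mitochondrial membrane. All 9 are textbook targets of peroxisome proliferator-activated receptors (PPARs), nuclear receptors that bind fatty acids and pair with retinoid X receptors on DNA. Their classical site is a direct repeat of AGGTCA with 1 base between (DR1).

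Promoter windows of 300 bases, 250 before and 50 after the RefSeq gene start (GRCm38.p6), were at hand for 7 of the 9 genes, all but Angptl4 and Lpl. They were searched on both strands for AGGTCANAGGTCA with up to 2 mismatches in the 12 bases of the repeats. Plin2, Cd36 and Ucp3 each held 1 match, all with 2 mismatches, and no match was found in the windows of Fabp3, Pdk4, Acot1 and Acot2. Over all 32851 windows, 3.86% held such a match. The 3 sequences are shown because they are the stretches of these windows nearest to the classical PPAR site, with capitals for the bases that match the repeat.
Plin2, chr4:86670272-86670284, opposite strand to the gene: AGGTCAggGGTCc
Cd36, chr5:17835947-17835959, opposite strand to the gene: AaGTCAgAGGcCA
Ucp3, chr7:100472940-100472952, strand of the gene: AGGTttcAGGTCA
The Plin2 match began 225 bases before the gene start, that of Cd36 63 bases and that of Ucp3 51 bases. A match is a resemblance in letters, and binding was not measured in these cells.

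Acot1 and Acot2 are neighbours on chromosome 12, and how well counts tell them apart depends on their sequence. In the GENCODE vM21 transcripts their coding sequences of 1260 and 1362 bases were 95.2% identical over 1239 aligned bases, with 59 differing bases and a longest identical stretch of 273 bases. The 60 coding bases that differ most between them are shown here with the 13 differing bases in capitals.
Acot1, coding bases 823 to 882: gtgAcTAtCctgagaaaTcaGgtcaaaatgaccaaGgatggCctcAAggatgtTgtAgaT
Acot2, coding bases 946 to 1005: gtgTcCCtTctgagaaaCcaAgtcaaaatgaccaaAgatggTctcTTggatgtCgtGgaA
Of the 75-base stretches of the Acot1 transcript, the length of 1 read, 26.4% also occurred in another gene, and of Acot2 21.2%. The pair shared 434 stretches, out of 581 shared ones of Acot1 and 450 of Acot2. For Fabp3, 195 of 749 such stretches were shared, mostly with the pseudogene Fabp3-ps1, and its exons also overlap Zcchc17 on the other strand. For Angptl4, Cd36 and Ucp3 no 75-base stretch occurred elsewhere, and for Lpl, Pdk4 and Plin2 the share was at most 2.55%. The split of reads between Acot1 and Acot2 and the count of Fabp3 are uncertain to that extent.

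The sums held between 4096609 counts (M73) and 40508124 (bright cells of M116). A median cell held 711527 counts, and 15 cells had fewer than 1000 genes. All 10 CM markers were detected in every sum, at 81006 to 102612 counts-per-million (CPM) together. Markers of other cells differed between sums. The 8 fibroblast markers added up to 2537 CPM in bright M25 against 33.4 to 514 CPM elsewhere, and 1 bright M25 cell held only 593 CPM of the CM markers. The 8 macrophage markers reached 68.9 and 76.2 CPM in the dim homozygous sums against 0.264 to 25.1 CPM elsewhere. The 5 blood markers added up to 345 CPM in dim M25 and 987 CPM in the library of M72 labelled bright, against 0.173 to 4.02 CPM elsewhere. The 5 adipocyte markers were at or near 0, with Adipoq, Cfd, Retn and Lep at 0 in all 8 sums. Mitochondrially encoded features took 218970 CPM in M73 and 109451 CPM in M26, so that the 2 control sums stood apart in composition, and M72, which shares a plate with M73, lay at 173652 and 168365 CPM. M25 and M26 share 1 library code and the other 3 mice share another, with M116 on plates of its own. As the reads carry no molecular identifiers, intervals on counts and shares cover counting error only. Levels below are normalized CPM, which are CPM scaled between the 8 sums by the trimmed mean of M values (TMM), and a gene passed the threshold at an adjusted p under 0.05. Human BAG3 was at 0.446 and 0.580 normalized CPM in the control sums, 280 and 209 in bright, and 10.3 and 91.1 in dim M25 and M116. In M72 it went against the labels, with 110 normalized CPM in the library labelled bright and 243 in the library labelled dim. The human BAG3 and eGFP features were the only 2 of 12203 genes past the threshold in bright against control (log2 fold change 8.96 ± 0.53 and 11.96 ± 0.66 (SE, n = 2 mice a group), edgeR quasi-likelihood test with Benjamini-Hochberg adjusted p = 0.0123 for both). That is a background of 0.0164% of genes. All changes below are relative to a median log2 fold change over all genes of 0.11 in bright and 0.10 in dim against control.

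Angptl4, the Lpl inhibitor, was low in control CMs and far higher in homozygous CMs of both brightness classes. It stood at 8.98 normalized CPM (161 counts) in control M26 and 0.580 (2 counts) in M73. In bright CMs it reached 65.5 normalized CPM in M25 and 58.6 in M116, and in dim CMs 77.6 in M25 and 33.7 in M116. All 4 homozygous sums were above both controls. In the heterozygous mouse the library labelled bright, at 3.11 normalized CPM, lay between the controls, and the library labelled dim, at 19.3, lay above both controls and below all homozygous sums. Ordered from the top, the sums ran dim M25, bright M25, bright M116, dim M116, heterozygous dim, M26, heterozygous bright and M73, and the bright and dim sums overlapped in that order.

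**Figure D1:**
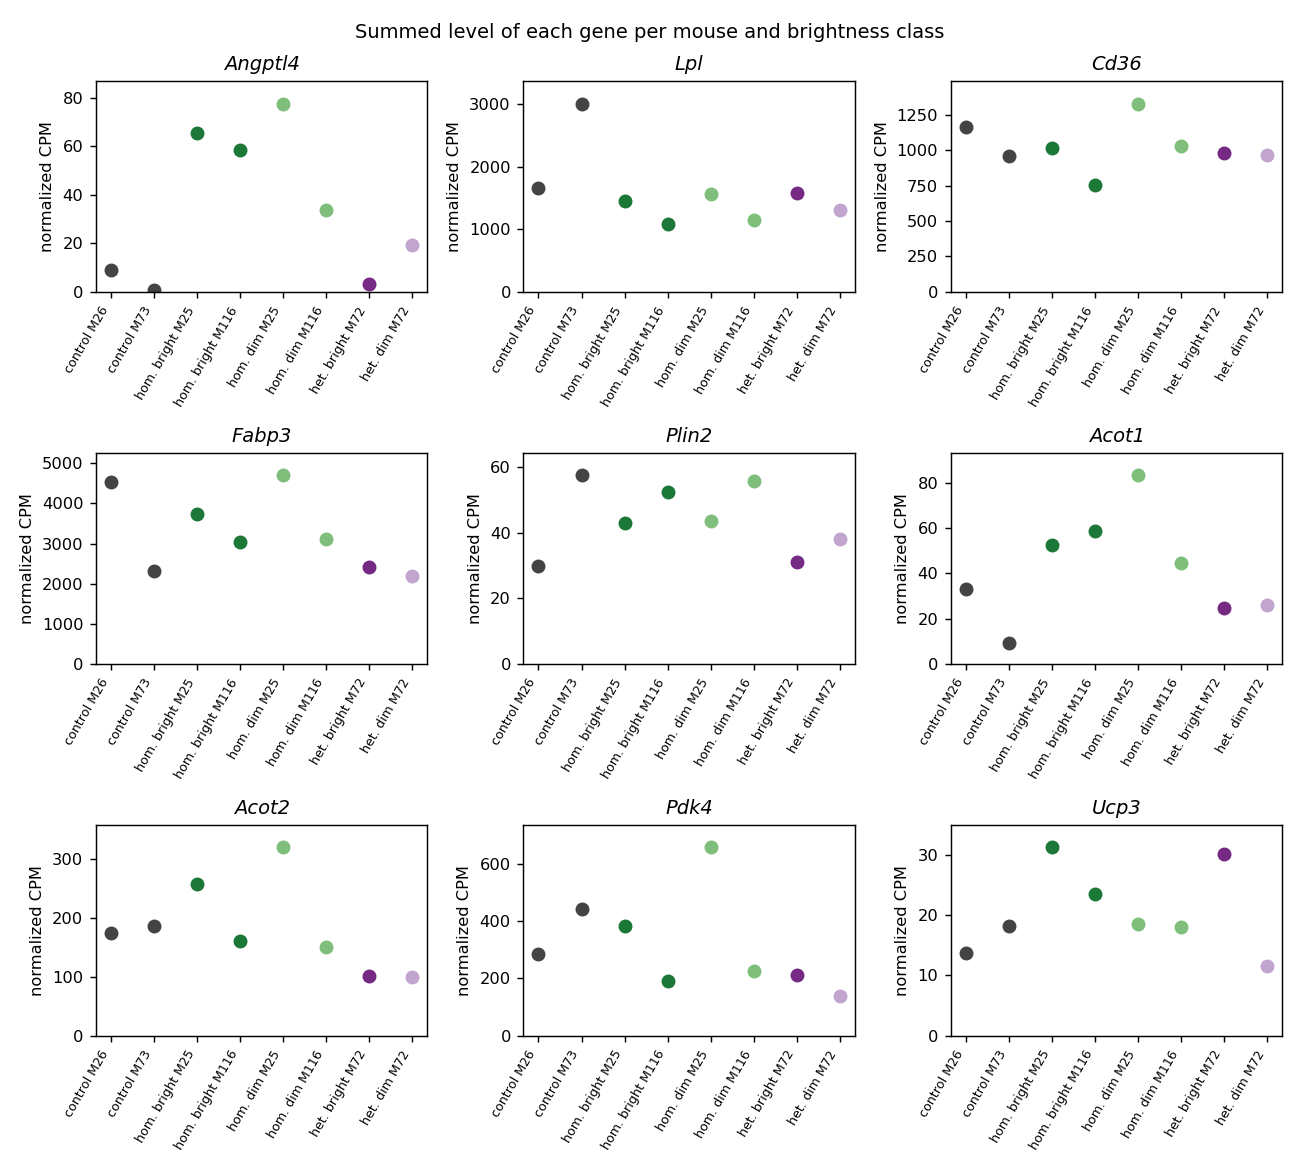
Normalized CPM (vertical axes, from 0, a scale per gene) of the 9 genes in the 8 sums of cells, 1 point per mouse and brightness class (hom., homozygous; het., heterozygous). Angptl4 and Acot1 lie above both controls in all 4 homozygous sums and Lpl lies below both, while the other genes overlap with the controls in at least 1 homozygous class. On unscaled CPM dim Lpl of M25 lies above control M26.

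The fitted log2 fold change of Angptl4 was 3.62 ± 1.10 (SE, n = 2 mice a group) in bright and 3.45 ± 1.14 in dim against control. The 2 comparisons share their control sums and the same 2 homozygous mice. Since Angptl4 and Acot1 were chosen against those control sums, their p in dim is no independent support. The dim value did not pass the threshold (edgeR quasi-likelihood test, adjusted p = 0.735), as none of the 12195 genes did (0.0% called), while 759 had an unadjusted p under 0.05. The size rests on the control used. Without M73 the bright value was 2.80 and the dim value 2.62, and without M26 they were 6.69 and 6.55. Compared within a library code, bright M25 held 7.29 times the Angptl4 of M26 (counting interval 6.19 to 8.64), and bright M116 held 101 times that of M73, where only 2 counts leave an interval of 28.0 to 835. In bright, the contrast that chose the genes, Angptl4 passed with DESeq2 (background 1.01% of genes called) and without the filter on low counts (background 0.787%), and nothing is read from either call. In dim it passed without the filter (background 0.287%) and without control M26 (background 5.89%), where 827 genes passed, and nothing is read from these calls either. That last fit has M73 as its only control, so its spread comes from the homozygous sums alone and M73 is assumed to vary like them.

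The groups differed in how many cells held Angptl4. A count was found in 5 of 24 cells of M26 and 2 of 9 of M73. It was found in 17 of 21 bright cells of M25 and 44 of 59 of M116, and in 15 of 18 and 33 of 50 dim cells. Bright and dim homozygous cells thus held the transcript in 66.0% to 83.3% of cells and control cells in 20.8% to 22.2%. In M72 it was found in 6 of 27 cells labelled bright and 8 of 26 labelled dim. The shares in the homozygous sums were above both controls, and with 2 mice a group an exact two-sided permutation test cannot go below p = 0.333. As deeper cells detect more, each cell was also thinned to 100000 counts, with shallower cells left out (4 in M26, 1 in M73, 7 and 2 of the bright and dim cells of M116, 4 and 2 of M72). Angptl4 was then found in 4 of 20 and 0 of 8 control cells, the latter allowing a share of up to 37.5%. It was found in 15 of 21 and 35 of 52 bright cells, 14 of 18 and 26 of 48 dim cells, and 1 of 23 and 4 of 24 cells of M72 labelled bright and dim.

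**Figure D2:**
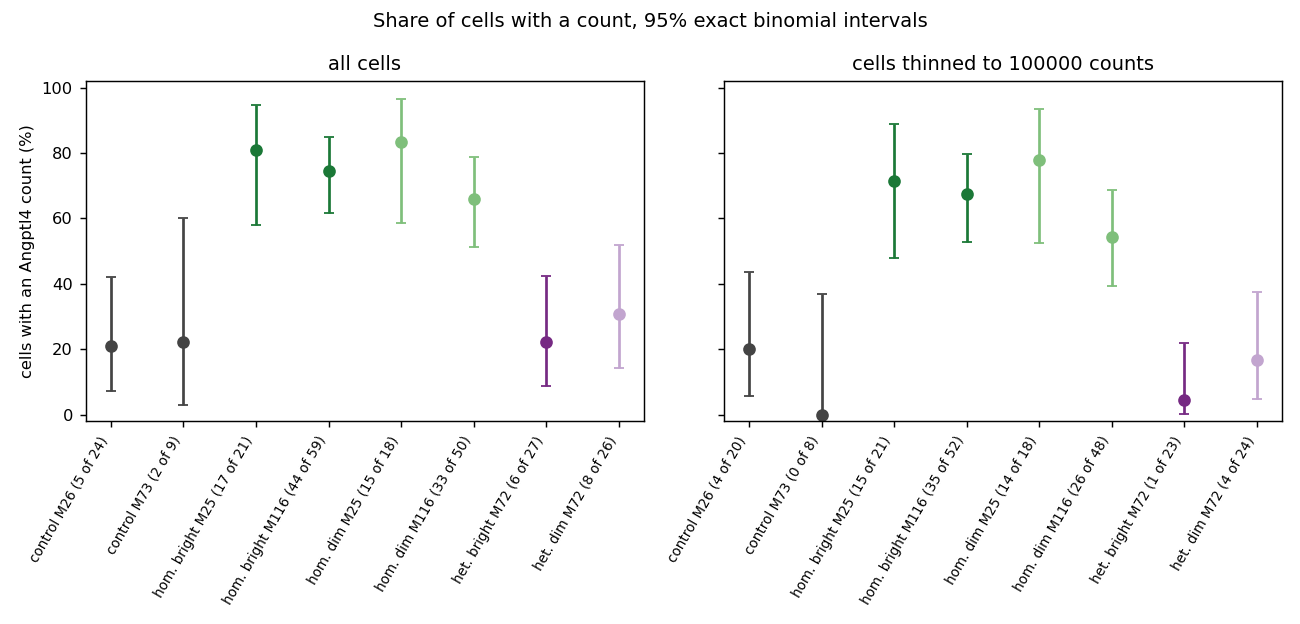
Percent of cells with at least 1 Angptl4 count (vertical axis) per mouse and class, in all cells on the left and in cells thinned to 100000 counts on the right, with 95% exact binomial intervals that cover counting error within a mouse only. The 4 homozygous points lie at 66.0% to 83.3% in all cells and the 2 control points at 20.8% and 22.2%.

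Levels per cell were uneven even within 1 mouse. Among cells with at least 1000 genes, the median Angptl4 level was 40.7 CPM in bright M25 and 31.3 CPM in bright M116, 69.5 CPM in dim M25 and 9.46 CPM in dim M116, and 0 in both controls and both classes of M72. The highest cell held 354 CPM in bright M116, where 14 of 56 cells had none. More than 100 CPM was seen in 6 of 20 and 15 of 56 bright cells and in 5 of 18 and 6 of 48 dim cells, but in none of the 28 control cells. In the library of M72 labelled dim, 1 cell carried 58.1% of all Angptl4 counts, and without it the sum went from 19.9 to 8.70 CPM. In control M26 1 cell carried 41.0%, and without it the sum went from 8.22 to 5.19 CPM. Of the 2 counts of M73 each lay in a cell of its own, and without 1 of them the sum went from 0.488 to 0.289 CPM. In bright sums the top cell carried 9.46% to 12.5%. The 2 plates of M116 gave 80.6 and 49.1 CPM in bright and 33.5 and 41.6 CPM in dim cells. Without cells that held over 1000 CPM of any other cell type's markers, a limit set after the data were seen, Angptl4 stood at 69.4 and 66.2 CPM in bright, 76.7 and 35.5 CPM in dim and 5.19 and 0.488 CPM in control cells.

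**Figure D3:**
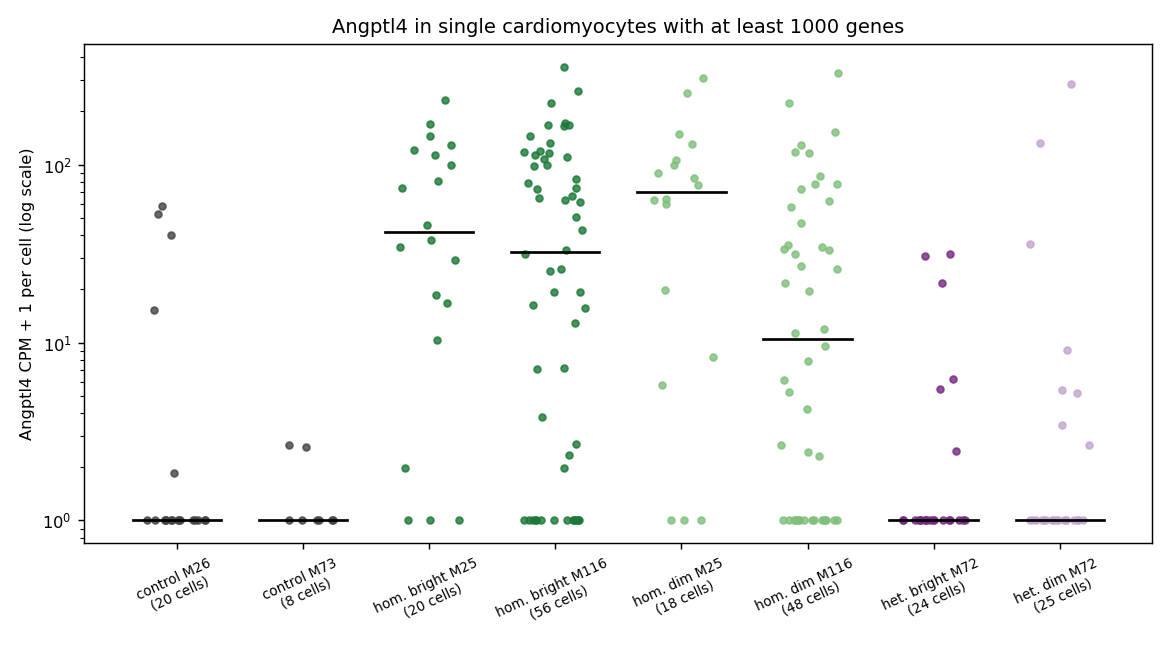
Angptl4 level per cell (CPM plus 1, log axis) in the 219 cells with at least 1000 genes, 1 point per cell, with a bar at the median of each mouse and class. Points at the bottom are cells without a count. Medians are above 0 in the 4 homozygous groups and at 0 in the other 4.

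From cell to cell Angptl4 and the transgene were weakly related at most. Over the 219 cells, centred within each mouse and class, the Spearman correlation of Angptl4 with human BAG3 was 0.04, and within the 56 bright cells of M116 it was 0.12. These points share library and depth, and Angptl4 correlated at 0.28 with the number of genes detected in the cell. Of the 18 dim cells of M25, 8 had no human BAG3 count, and 5 of those 8 held Angptl4, with a median of 51.5 CPM. The other 10 all held Angptl4, with a median of 69.5 CPM. In dim M116 the order was the other way. The median was 8.57 CPM in 43 cells with a human BAG3 count and 18.6 CPM in 5 cells without. In M72, all 25 cells labelled dim had human BAG3 counts, and 8 of them held Angptl4. With the other 8 genes Angptl4 correlated between -0.05 (Lpl) and 0.16 (Plin2), too weakly to be read as a pattern. The 5 genes most like it of 7949 compared were Sh3glb2 (0.31), Efhd2, Gm42615, Lzts2 and Rad17 (0.29 to 0.30), close to its correlation with genes detected.

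Lpl, the enzyme that Angptl4 inhibits, was lower in homozygous than in control CMs. It stood at 1658 and 3005 normalized CPM in M26 and M73, at 1445 and 1083 in bright M25 and M116, and at 1568 and 1143 in dim. Both classes lay below both controls, though dim M25 was only narrowly under M26. On unscaled CPM dim M25, at 1623, was above M26, at 1517, where bright M25 also lay. The log2 fold change was -0.92 ± 0.38 in bright and -0.80 ± 0.39 in dim, which did not pass the threshold (adjusted p = 0.907). Within a library code the ratio of bright to control was 0.872 for M25 over M26 and 0.361 for M116 over M73, so that much of the difference came from the high sum of M73. The heterozygous sums, at 1582 and 1305 normalized CPM in the libraries labelled bright and dim, were also below both controls. Lpl had a count in all but 2 of the 234 cells.

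Of the 9 genes, 3 had both bright sums above both control sums (Angptl4, Acot1 and Ucp3) and 1 had both below (Lpl). Over all genes tested, 24.6% lay above and 14.3% below. In dim, 2 of the 9 lay above (Angptl4 and Acot1) and Lpl below, against 24.1% and 13.7% of all genes. These counts depended on the scaling. On unscaled CPM 4 of the 9 lay above in bright, with Acot2 added (33.7% of all genes), and 1 below (8.24%). In dim 5 of the 9 then lay above, with Acot2, Ucp3 and Cd36 added (32.5%), and 0 below (8.09%). None of the 9 passed the threshold in any of the 3 main comparisons. In dim 1 of the 9 had an unadjusted p under 0.05.

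**Figure D4:**
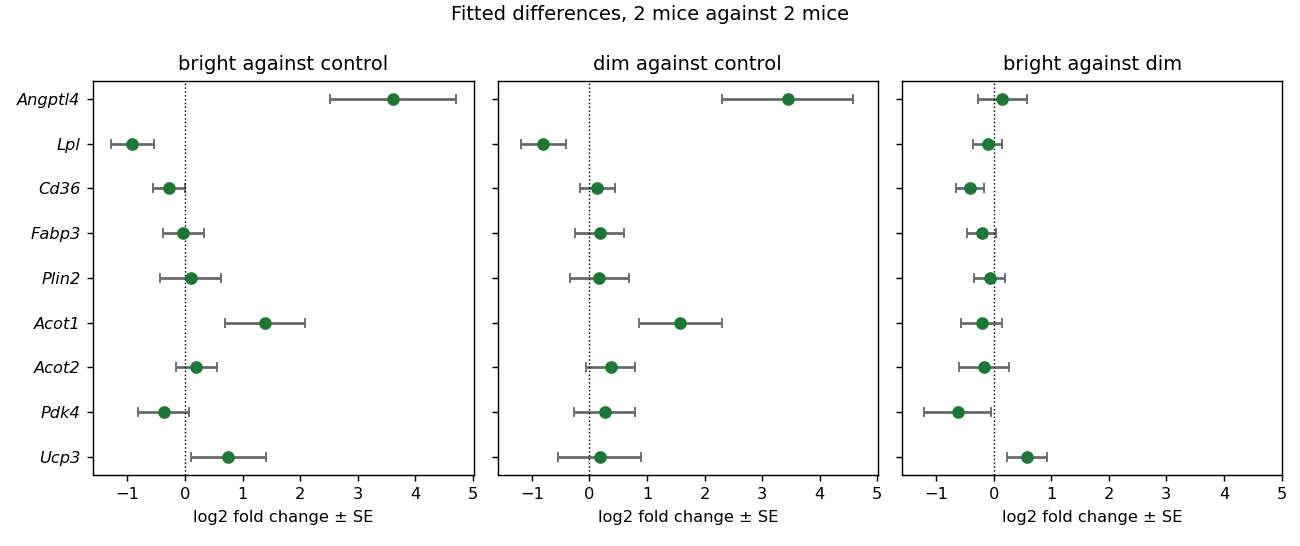
Log2 fold change (horizontal axis) of each of the 9 genes in the edgeR fit of 2 mice against 2 mice, with bars of 1 standard error, in bright against control, dim against control and bright against dim. Angptl4 lies at 3.62 and 3.45 against control and at 0.15 between bright and dim.

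Cd36 and Fabp3, the uptake and carrier proteins, were abundant in every group and differed little in the main fit. With equal weight per cell the dim log2 fold changes were 0.89 for Cd36 and 1.22 for Fabp3, against 0.14 and 0.18 in the main fit. Cd36 stood at 1161 and 962 normalized CPM in M26 and M73, at 1016 and 756 in bright, 1329 and 1029 in dim, and 980 and 970 in the libraries of M72 labelled bright and dim. The dim and bright groups did not overlap, with bright lower in both mice (log2 fold change -0.42 ± 0.24, adjusted p = 0.999). Of all 13439 genes tested, 15.8% had both bright sums below both dim sums. Endothelial markers, which include none of the 9 genes, stood at 77.5 and 92.0 CPM in bright and 188 and 193 CPM in dim sums. They stood at 94.1 and 183 CPM in M26 and M73, where Cd36 was lower in M73. In the libraries of M72 labelled bright and dim they stood at 108 and 184 CPM, with Cd36 nearly equal. Their part in the Cd36 value was not tested. Fabp3 stood at 4530 and 2313 normalized CPM in M26 and M73, 3727 and 3046 in bright, 4699 and 3108 in dim, and 2423 and 2186 in M72. The controls spanned both bright sums, and the log2 fold change was -0.03 ± 0.36 in bright and 0.18 ± 0.42 in dim (adjusted p = 0.999). Its interval in dim, -0.64 to 1.00, leaves room for a change in either direction. Within a library code Fabp3 was lower in bright M25 than in M26 (ratio 0.823) and higher in bright M116 than in M73 (ratio 1.32).

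Plin2, the droplet coat protein, stood at 29.8 and 57.4 normalized CPM in M26 and M73, 43.0 and 52.4 in bright, 43.6 and 55.8 in dim, and 31.0 and 37.9 in M72. All homozygous sums lay between the 2 controls. In M73 a single cell carried 79.3% of the Plin2 counts. Without the top cell of each sum, a step chosen after the data were seen, unscaled Plin2 fell from 48.3 to 11.2 CPM in M73. It then stood at 25.4 CPM in M26 and at 39.5 to 56.9 CPM in the homozygous sums, all above both controls. Leaving out 1 cell takes more from M73, which had 9 cells, than from larger sums. The share of all genes separated by this step was not computed, so nothing is read from that order. The log2 fold change was 0.10 ± 0.53 in bright and 0.17 ± 0.52 in dim (adjusted p = 0.999). A count was found in 55.6% to 77.8% of cells of each sum.

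Acot1, the cytosolic thioesterase, stood higher in homozygous CMs, while the order of its mitochondrial neighbour Acot2 depended on the scaling. Acot1 stood at 33.0 and 8.99 normalized CPM in M26 and M73, 52.5 and 58.6 in bright, 83.4 and 44.5 in dim, and 24.5 and 26.2 in M72. The homozygous sums were above both controls and the heterozygous sums between them. The log2 fold change was 1.38 ± 0.70 in bright and 1.58 ± 0.73 in dim (adjusted p = 0.882). Without M73 these were 0.76 and 0.95, and without M26 they were 2.59 and 2.81, with M73 as the only control. In M73, 1 cell carried 45.2% of the Acot1 counts. Acot1 was found in 13 of 24 and 5 of 9 control cells, 16 of 21 and 49 of 59 bright cells, and 17 of 18 and 38 of 50 dim cells. Acot2 stood at 174 and 185 normalized CPM in M26 and M73, 258 and 160 in bright, 320 and 150 in dim, and 101 and 98.5 in M72. In both classes the M25 sum lay above the controls and the M116 sum below. On unscaled CPM, with every cell kept, Acot2 stood at 159 and 156 CPM in controls, 271 and 178 in bright and 331 and 164 in dim, so that on that scale all 4 homozygous sums were above both controls. In M73 1 cell carried 63.8% of its Acot2 counts. Without the top cell of each sum, a step chosen after the data were seen, unscaled Acot2 was at 142 and 66.2 CPM in controls, 261 and 176 in bright and 323 and 157 in dim. All 4 homozygous sums were again above both controls. As with Plin2, the step took most from M73, and nothing is read from that order. With equal weight per cell the log2 fold change of Acot2 was 1.49 in bright and 2.03 in dim. The log2 fold change of Acot2 was 0.20 ± 0.35 in bright and 0.37 ± 0.43 in dim (adjusted p = 0.999). A test of the difference between the changes of Acot1 and Acot2 was not run, and the sequence they share, shown above, leaves their split uncertain.

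Pdk4, the brake on pyruvate dehydrogenase, differed more between mice than between groups in these sums. It stood at 286 and 442 normalized CPM in M26 and M73, 384 and 191 in bright M25 and M116, 659 and 225 in dim, and 211 and 137 in M72. In both brightness classes M25 was higher than M116, and all groups overlapped with the controls except M72, which lay below both. The log2 fold change was -0.37 ± 0.44 in bright and 0.26 ± 0.54 in dim (adjusted p = 0.999), and -0.63 ± 0.58 for bright against dim. With equal weight per cell the dim value was 1.43. Ucp3 stood at 13.7 and 18.3 normalized CPM in M26 and M73, 31.3 and 23.5 in bright, 18.5 and 18.0 in dim, and 30.1 and 11.5 in M72. Bright sums were above both controls and both dim sums, as were 24.6% and 15.3% of all genes tested in those 2 comparisons. A few cells carried much of the transcript, 85.7% of it in 1 cell of M73. On unscaled CPM, with every cell kept, Ucp3 was at 12.5 and 15.4 CPM in controls, 32.8 and 26.1 in bright and 19.2 and 19.7 in dim, so that dim too was above both controls. Without the top cell of each sum the unscaled values were 10.9 and 2.50 CPM in controls, 26.2 and 22.1 in bright and 16.4 and 17.4 in dim. Both classes were again above both controls. As with Plin2, the step took most from M73, and nothing is read from that order. The log2 fold change of Ucp3 was 0.75 ± 0.65 in bright and 0.18 ± 0.72 in dim against control, and 0.58 ± 0.35 for bright against dim (adjusted p = 0.999 for the last 2).

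Between bright and dim cells of the same mice none of 13439 genes passed the threshold (0.0% called; 554 had an unadjusted p under 0.05), and neither did any of the 9 genes. For Angptl4 the log2 fold change was 0.15 ± 0.43 with an interval of -0.69 to 0.99, because bright was 0.844 times dim in M25 and 1.74 times dim in M116. With the mouse as a block the value was 0.27 and again 0 genes passed. DESeq2 called 89 genes here and none of the 9. In M72, the library labelled bright, which held less human BAG3, had 0.161 times the Angptl4 of the library labelled dim.

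The genes around these 9 were read from lists of the same pathways, and none passed the threshold in the main edgeR fit of any comparison (12 of 122 tested had an unadjusted p under 0.05 in bright against control, 9 of 122 in dim against control and 7 of 124 in bright against dim). Over all genes these were 799 of 12203, 759 of 12195 and 554 of 13439. DESeq2 called Atf3, Egln3, Pdp2 and Ppargc1a in bright, Acot6, Atf3 and Ppargc1a in dim (background 0.522% of genes called), and Cav1, Fabp4 and Gpihbp1 between bright and dim (background 0.689%). Without the filter on low counts edgeR called Atf3, Egr1, Fos, Junb, Lpin1 and Ppargc1a in bright (background 0.787%), Atf3 and Ppargc1a in dim (background 0.287%), and Cav1, Egr1, Fabp4, Gpihbp1 and Junb between bright and dim (background 0.992%). With the library code as block it called Ppargc1a in bright (background 0.0819%) and Atf3 and Ppargc1a in dim (background 0.0984%), and with all 8 sums in 1 fit Ppargc1a in bright (background 0.0301%). Among relatives and partners of Lpl, 12 of 19 were tested, with 6 higher and 6 lower in bright (median log2 fold change -0.00). Angptl2, a relative of Angptl4, stood at 11.3 and 15.1 normalized CPM in controls and 84.0 and 29.0 in bright (log2 fold change 2.08 ± 0.70), and the bright M25 sum also held the most fibroblast markers. Gpihbp1, which anchors Lpl on capillary endothelium, stood at 45.9 and 50.7 normalized CPM in controls, 27.8 and 14.3 in bright and 81.2 and 57.4 in dim. The endothelial markers given above were also lower in bright than in dim sums, and differed between the controls. The log2 fold change of Gpihbp1 was -1.22 ± 0.58 in bright and 0.50 ± 0.43 in dim (adjusted p = 0.991). Angptl6, at no more than 3.93 normalized CPM in any sum, and Lmf2, an Lpl maturation factor relative (log2 fold change -0.80 ± 0.70), were the others that separated bright from control by most.

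For fatty acid uptake and activation, 7 of 11 tested genes were higher and 4 lower in bright (median 0.19). Slc27a1, a fatty acid transporter, stood at 59.1 and 24.4 normalized CPM in controls and 63.7 and 76.0 in bright. Acsl3, an acyl-CoA synthetase, stood at 2.23 and 0.290 normalized CPM in controls and 4.68 and 14.6 in bright. Fabp4, a fatty acid binding protein of capillary endothelium and fat, stood at 185 and 206 normalized CPM in controls, 95.7 and 70.8 in bright and 279 and 148 in dim. It was among the 5 genes most like Cd36 over cells (Spearman 0.33, n = 219), together with Pacsin2 (0.36), Rasgrp3, Etl4 and Ldha.

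Of the lipid droplet genes, 3 of 16 tested were higher and 13 lower in bright (median -0.57), and 9 had both bright sums below both controls. Of all genes tested 54.1% were higher and 14.3% had both sums below. All 10 CM markers were also lower in bright (median -0.67), and 7 of them had both bright sums below both controls. Lpin1, a phosphatidate phosphatase and coactivator, stood at 238 and 104 normalized CPM in controls, 53.1 and 47.2 in bright and 74.9 and 70.3 in dim (log2 fold change -1.78 ± 0.47 and -1.25 ± 0.47, adjusted p = 0.735 for dim). Lipe, hormone-sensitive lipase, stood at 5.36 and 15.1 normalized CPM in controls, 3.53 and 3.73 in bright, and 11.3 and 10.8 in dim.

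Further PPAR targets of fatty acid oxidation showed no common direction in bright, with 11 of 21 higher and 10 lower (median 0.02), and 15 higher and 6 lower in dim (median 0.25). Acadvl, the first enzyme of long-chain β-oxidation, had a log2 fold change of 1.03 ± 0.61 in bright and stood lowest in M73, at 50.4 normalized CPM. Decr1, needed for unsaturated fatty acids, stood at 769 and 702 normalized CPM in controls and 508 and 415 in bright, and the carnitine carrier Slc22a5 had a log2 fold change of -1.29 ± 1.14. Between bright and dim 20 of the 21 were lower in bright (median -0.19, against -0.01 over all genes).

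Of 17 PPAR receptors and cofactors, 13 were lower in bright and 13 in dim (medians -0.50 and -0.46). Of the 10 CM markers, 10 were lower in bright and 9 in dim (medians -0.67 and -0.61). Ppargc1a, the coactivator PGC-1α that drives mitochondrial and fatty acid oxidation genes with the PPARs, stood at 944 and 1020 normalized CPM in controls, 227 and 227 in bright, 303 and 325 in dim, and 446 and 377 in M72. The 3 transgenic groups were each below both controls. Its log2 fold change was -2.14 ± 0.27 in bright (edgeR adjusted p = 0.489) and -1.66 ± 0.29 in dim (adjusted p = 0.735). With the library code as block the values were -2.13 in bright (edgeR adjusted p = 0.0127) and -1.66 in dim (adjusted p = 0.0114), so that the block changed both calls. Over all edgeR, DESeq2 and limma alternatives the adjusted p ran from 1.89e-06 to 0.646 in bright and from 0.00106 to 1.00 in dim. Rxra and Rxrb, partners of the PPARs, had log2 fold changes of 0.64 ± 0.95 and -0.93 ± 0.67 in bright.

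Among kin of Pdk4, Ucp3 and the thioesterases, 6 of 18 tested genes were higher and 12 lower in bright (median -0.19). Pdp2, the phosphatase that opposes the Pdk enzymes, stood at 33.0 and 29.9 normalized CPM in controls, 6.70 and 6.01 in bright, and 25.4 and 20.5 in M72 (log2 fold change -2.33 ± 0.70 in bright, -1.42 ± 0.66 in dim with adjusted p = 0.891). Acot6, Acot8 and Pdk3 separated the groups at levels of at most 19.0 normalized CPM.

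Genes of 3 other inputs on Angptl4 were also counted. Of glucocorticoid targets 2 of 9 were higher in bright (among them the clock gene Per1, log2 fold change 1.74 ± 0.71) and 7 lower, and 4 were higher and 5 lower in dim, with Mt2 and Cebpd at or under 14.5 normalized CPM in every sum. Of hypoxia targets 2 of 11 were higher and 9 lower in bright (median -0.74), and 5 were higher and 6 lower in dim (median -0.02). Egln3 stood at 80.6 and 42.3 normalized CPM in controls, 17.0 and 9.81 in bright, and 16.6 and 10.7 in dim. Hilpda, which inhibits droplet lipolysis, stood at 2.01 and 0.290 normalized CPM in controls, 9.37 and 5.08 in bright, and 6.78 and 6.48 in dim, and Ndrg1 at 2.45 and 5.22 in controls and 1.31 and 0.510 in bright. Of immediate early and stress genes 6 of 7 were higher in bright (median 2.28) and 5 of 7 in dim (median 0.88), a set that cell isolation is known to induce. Atf3 stood at 9.65 and 12.2 normalized CPM in controls, 35.6 and 221 in bright and 30.6 and 289 in dim, and Fos at 20.1 and 1.45, 29.5 and 112, and 21.6 and 111. In dim Atf3 had a log2 fold change of 3.86 (edgeR adjusted p = 0.735), and 3.07 with the library code as block (adjusted p = 0.0142). In both classes M116 held several times the Atf3 of M25. The part of cell isolation in the Angptl4 value was not tested.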

How the data were processed

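Counts per gene and cell were deposited by the authors as 1 table of raw counts, made with bcl2fastq and STAR gene counting on a mouse reference to which the transgene's human BAG3 and eGFP had been added. Build, annotation and strand column are not given in the sources used here. Counts of the cells of a mouse and class were summed. Genes were filtered with filterByExpr and scaled by TMM, and groups were compared with the quasi-likelihood test of edgeR 4.0.16 (R 4.3.3) with a threshold of 0.05. DESeq2 1.42.0 and limma 3.58.1 served as alternatives. Normalized CPM are CPM after TMM over the 8 sums. The script was tested on simulated data. The 9 genes and the lists were chosen with earlier results of these data known. Besides the 9 genes and transgene features, genes named are the 2 highest and 2 lowest per list that separate bright from control, and the 5 most like Angptl4 or Cd36 over cells, except that 1 gene is not reported here. Marker genes named at 0 were chosen after their values were seen. Bright and dim cells of M25 and of M116 came from the same animals by the labels, and the mouse differences of both classes correlated at 0.08 over 13439 genes. Nothing says more than 1 heart was pooled.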

Additional observations from a re-analysis of the deposited data

Results flagged for a closer look

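For 4 of the 9 genes the bright over dim ratio went one way in both homozygous mice and the other way in the heterozygous mouse M72. The log2 ratio in M72 was 0.28 for Lpl, 0.0148 for Cd36, 0.15 for Fabp3 and 0.62 for Pdk4, where both homozygous mice had negative values. With 1 heterozygous mouse the difference was not tested. The library of M72 labelled bright held less human BAG3 than the library labelled dim, so the direction follows the labels and not the transgene level, and the Cd36 ratio is next to 0. With M72 turned to follow human BAG3, these 4 genes would go the same way in all 3 mice, which is fixed by the rule that picked them. Ucp3 and Plin2, with log2 ratios by label of 1.39 and -0.29 in M72, would then go the other way. That turn was chosen after the values were seen, and nothing is read from it. No group had the 4 mice needed to look for a sample apart from the others.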

How the results depend on the processing

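With 2 mice a group no size is precise, and the 2 controls differ in depth and mitochondrial share. In bright against control 106 genes passed with DESeq2, 163 without the filter, 4 with equal weight per cell, 5 with all 8 sums in 1 fit and 10 with the library code as block, against 2 in the main fit; 1 of the 9 genes, Angptl4, passed with DESeq2 and without the filter, from which, as from the calls in dim on the same controls, nothing is read since those sums chose the genes. Leaving out 1 mouse gave 0 to 41 genes. In dim against control the counts were 55, 58, 1, 1 and 12 against 0, with 1 of the 9 genes (Angptl4) past the threshold without the filter, and leaving out 1 mouse gave 3 to 827 genes and 0 to 2 of the 9 (Angptl4 and Acot1 without M26, which leaves 1 control and no control spread). In bright against dim they were 89 with DESeq2, 217 without the filter and 2 with equal weight, and 0 with the mouse as replicate block, which changed no call of the 9 genes. Angptl4 and Acot1 stayed higher and Lpl lower against control in every alternative run. Signs of small differences turned in bright against control for Cd36 with library size alone (0.0285), for Pdk4 with equal weight (0.15) and for Fabp3 with library size alone (0.26), no filter (0.0057), equal weight (0.58), the library code as block (0.0346) and both classes summed (0.0634). Leaving out 1 mouse gave Fabp3 -0.41 to 0.51, Pdk4 -0.91 to 0.0483, Plin2 -0.30 to 0.69 and Acot2 -0.14 to 0.50 in bright, and Cd36 -0.0121 to 0.30, Fabp3 -0.22 to 0.74, Pdk4 -0.66 to 0.83, Plin2 -0.22 to 0.73, Acot2 -0.23 to 0.81 and Ucp3 -0.0185 to 0.41 in dim. With 1 mouse alone, bright against dim ran from -0.24 to 0.79 for Angptl4, -0.66 to 0.38 for Acot1 and -0.31 to 0.0851 for Acot2. Equal weight per cell gave the highest dim values of Acot2 (2.03), Pdk4 (1.43), Fabp3 (1.22) and Cd36 (0.89), and 1.49 for Acot2 in bright. The bright minus control difference in the share of cells with a count turned on thinning for Cd36 (-4.76 points), Fabp3 (-2.38) and Pdk4 (-6.11), for Pdk4 also in cells with at least 1000 genes (-4.29), and the dim difference of Ucp3 in those cells (-5.83). The causes were not tested.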
